A study of Danio rerio with 5 samples.

Results

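Matrix metalloproteinases, ADAMTS proteases and their tissue inhibitors were followed in pdgfrb-reporter cells of zebrafish larvae. The members are the genes whose symbol starts with mmp and a digit, with adamts, or with timp and a digit. They number 49 of the 36351 genes in the single-cell files: 24 mmp genes, 16 adamts genes, 4 adamtsl (ADAMTS-like) genes and 5 timp genes. The rule reads symbols only and no measured value, and 2 genes with upper-case symbols, ADAMTS7 and MMP23B, fall outside it.

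Metalloproteinases of the matrix hold a zinc ion at the active site and cut collagens, gelatin and other matrix proteins. Most are secreted, and the membrane-type ones stay anchored to the cell that makes them. ADAMTS proteases are secreted and cut proteoglycans or trim procollagen, whereas ADAMTS-like proteins share their ancillary domains and lack the protease domain. TIMP proteins bind the active site and block it. In mammals TIMP2 has a further role, since a complex of TIMP2 with membrane-type MMP14 activates the zymogen of MMP2 at the cell surface.

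All cells came from larvae 5 days after fertilization, were dissociated, and were sorted by fluorescence for a reporter of pdgfrb, the receptor of PDGF-B that marks pericytes and other mural and mesenchymal cells. The 2 single-cell libraries were made with the 10x 3′ v3 kit from the EGFP line Tg(pdgfrb:egfp)ncv22, with no mutation named. The 3 um148 libraries are bulk libraries primed with oligo-dT (TotalScript kit) from citrine-positive cells of Tg(pdgfrb:citrine)s1010 larvae that carry pdgfb um148, as the strain label spells it. The titles call these larvae um148 mutants. In both lines the pdgfrb transgene decides which cells were sorted, and a loss or gain of reporter-positive cells changes what a bulk library holds. The labels do not say that libraries came from separate clutches, so p-values measure the spread between these libraries, which may be technical.

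Single-cell library 1 held 70247500 UMIs (counted molecules) in 12121 barcodes and library 2 held 77896721 in 10182, and the libraries share 30 barcode sequences. Filters on genes and mitochondrial RNA kept 5935 and 7851 cells, with median depths of 5837 and 6326 UMIs. The 2 libraries differed in the share kept, 49.0% against 77.1%. In each um148 column of the authors' table, each value is a whole multiple of 1 step within 0.01. Divided by that step, the columns sum to 16848358, 19440480 and 21437870. These sums are inferred depths and not measured read counts.

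Cells were placed in classes by marker genes that include no member, with at least 3 markers of a set above what the gene's library-wide share gives at that depth. This gated 2149 cells of library 1 (36.2%) and 2976 of library 2 (37.9%). The class names are rebuilt here and may differ from the study's, so each carries the ending "-like". A gate is a range, not a type: 24 of 31 pericyte-like cells in library 1 and 42 of 52 in library 2 sat at the minimum of 3 markers. So did 91 of 105 and 97 of 122 fibroblast-like cells, and 224 of 317 and 264 of 432 fin fold mesenchyme-like cells. Cells that met 2 or more sets (263 and 369) were left out as possible doublets, and no doublet caller was run. The sort label was checked on pdgfrb itself, which stood at 523 and 463 CPM (UMIs of the gene per 1e6 UMIs of the class) in pericyte-like cells. It stood at 9.30 and 6.84 CPM in neuron-like cells, one of several classes that are not mural and were nevertheless in the sort. Throughout, paired values are library 1, then library 2.

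Across the 12 classes with at least 30 cells in each library, members were called higher most often in fibroblast-like and fin fold mesenchyme-like cells, and single genes led in leukocyte-like, epidermis-like and neuron-like cells. Of the 49 members, 47 had a UMI in both libraries, and mmp21 had none. For mmp21, 0 of 5935 and 0 of 7851 cells allows a share of up to 0.0505% and 0.0382%. After the filter on low counts 34 members could be tested, and 15 could not. The untested ones had 0 to 150 UMIs in library 1 and 0 to 195 in library 2. Each class was compared in edgeR with the mean of the other 11 on the log scale, with the library as a block. Classes with few or no UMIs of a gene pull that mean down. Folds of sparse genes can thus exceed a ratio of mean CPM and are less comparable with folds of genes found in all classes. A call needed an adjusted p under 0.05 and a 2-fold difference. Folds are log2 fold changes with their SE (n = 2 libraries). The spread behind them is what the library block leaves, estimated jointly over the classes and not for each class alone. The p-values are two-sided and Benjamini-Hochberg adjusted over all genes tested in a class. All 34 tested members were higher in at least 1 class, against 81.7% of all 14044 genes tested, so this count does not set the members apart.

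The classes in which members were called differed. In fibroblast-like cells 19 of 34 members were higher and 1 was lower, where 9.29% of all genes were higher and 1.56% lower. In fin fold mesenchyme-like cells the counts were also 19 and 1, where 16.3% of genes were higher and 4.48% lower. Smooth muscle-like cells had 14 members higher and 0 lower (11.9% of genes higher, 0.57% lower), epidermis-like cells 13 and 0 (15.1% and 5.31%), chondrocyte-like cells 10 and 2 (10.7% and 3.24%) and osteoblast-like cells 7 and 0 (5.63% and 1.46%). Pericyte-like cells had 3 higher and 0 lower (4.48% and 1.28%), and dlx/shox mesenchyme-like cells 3 and 1 (7.84% and 5.3%).

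In the other 4 classes, members were called lower at least as often as higher. Glia-like cells had 6 members higher and 14 lower, where 15.8% of genes were higher and 11.5% lower. Neuron-like cells had 3 and 11 (28.7% and 16.6%), leukocyte-like cells 3 and 8 (16.1% and 12.2%) and skeletal muscle-like cells 7 and 7 (16.3% and 10.2%). The median member fold, on the log2 scale, ran from 1.86 in fin fold mesenchyme-like and 1.46 in fibroblast-like cells to -1.72 in leukocyte-like and -1.55 in glia-like cells. Depth differed between classes: the median ran from 3186 to 19136 UMIs in library 1 and from 3363.5 to 19425 in library 2.

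These splits depend on the scaling between classes. Without the TMM factors, which correct for a few abundant genes that take up reads, the median log2 fold of all genes moved by between -0.74 (skeletal muscle-like) and 0.63 (glia-like), with -0.44 in chondrocyte-like and 0.49 in pericyte-like cells. In skeletal muscle-like cells 6 members were then higher and 13 lower, as all genes went from 2285 higher and 1428 lower to 1373 and 3966. Chondrocyte-like cells had 7 members higher and 4 lower, with all genes going from 1500 and 455 to 880 and 1351. Epidermis-like cells had 11 and 3 (all genes from 2122 and 746 to 1577 and 1418), and fin fold mesenchyme-like cells 19 and 3 (from 2283 and 629 to 1779 and 1042). Glia-like cells had 7 and 9 (from 2221 and 1612 to 4375 and 875), and neuron-like cells 4 and 8 (from 4030 and 2326 to 5299 and 1510). Pericyte-like cells had 6 and 0 (from 629 and 180 to 1126 and 56), and dlx/shox mesenchyme-like cells stayed at 3 and 1 (from 1101 and 745 to 1669 and 421). RLE factors, a related scaling, gave 1222 and 642 in chondrocyte-like and 1902 and 892 in fin fold mesenchyme-like cells. No member call turned its direction.

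**Figure D1:**
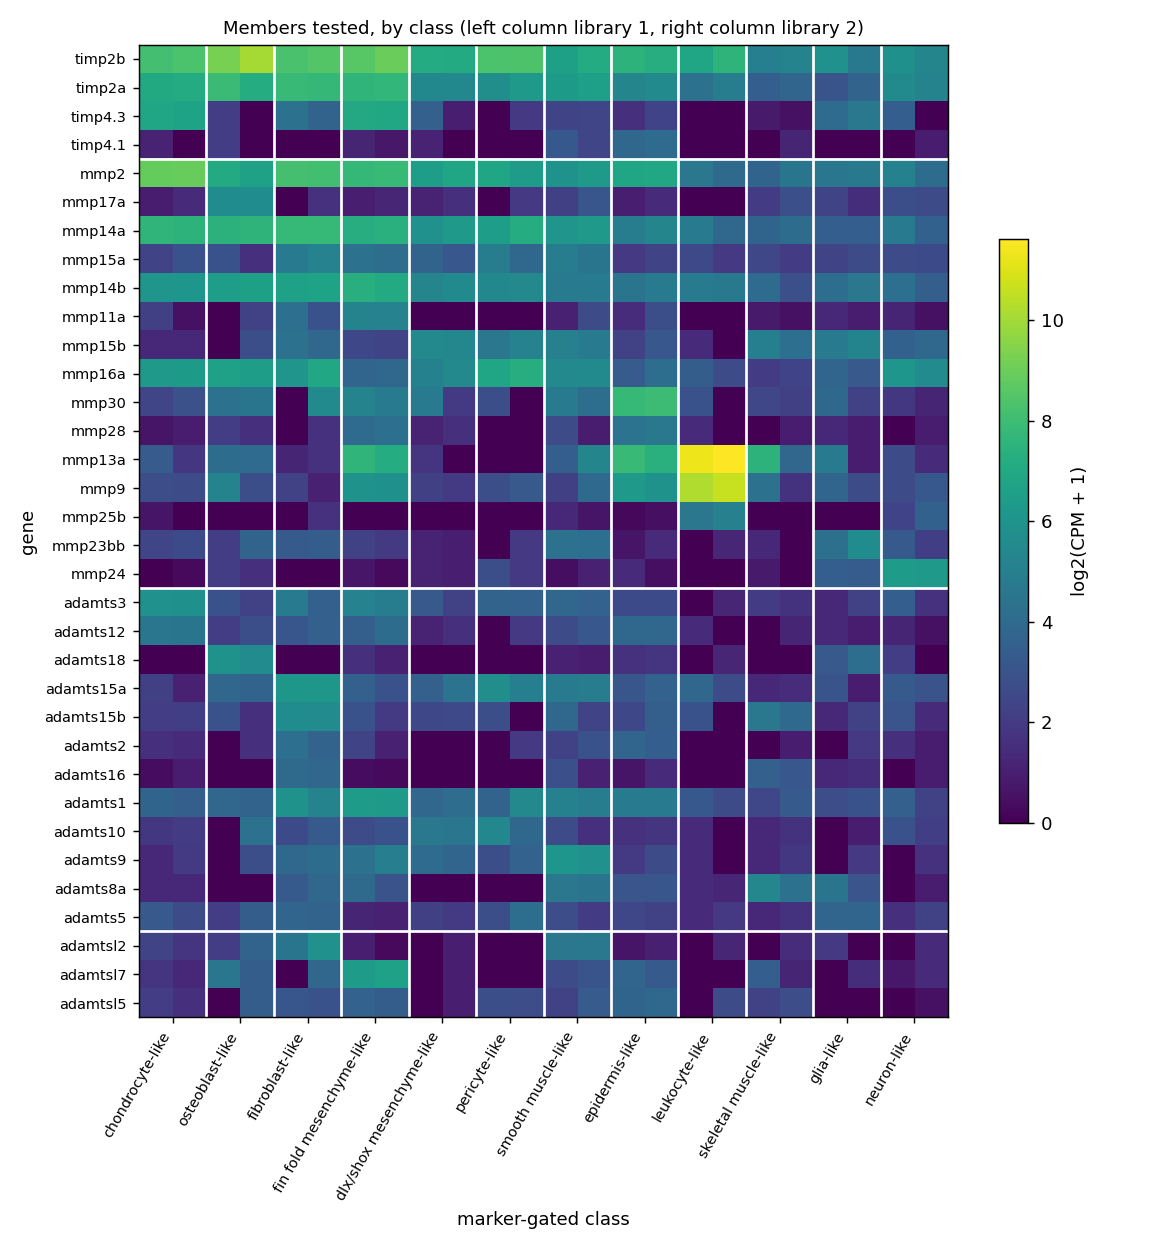
Levels of the 34 tested members in 12 marker-gated classes, as log2(CPM + 1), with library 1 in the left and library 2 in the right column of each class; rows are grouped as timp, mmp, adamts and adamtsl genes. The brightest cells are mmp13a and mmp9 in leukocyte-like cells, and timp2b, timp2a, mmp2, mmp14a and mmp14b are bright across the skeletal and connective tissue classes.

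Among the inhibitors, timp2a and timp2b were present in all 12 classes, and the timp4 genes were near 0 in several. timp2b had the highest summed level of all members, 201 and 219 CPM over the kept cells. It was highest in osteoblast-like cells at 589.8 and 1050.2 CPM, then in fin fold mesenchyme-like cells at 387 and 495 CPM. Its fold in osteoblast-like cells was 2.62 ± 0.18 (SE, edgeR adjusted p = 3.17e-10), but against fin fold mesenchyme-like cells alone the difference was 0.70 on the log2 scale with an adjusted p of 0.118, so these 2 classes were not separated. Pericyte-like cells held 323 and 329 CPM and the fold there was 0.60 ± 0.23 (SE, edgeR adjusted p = 0.134), which did not pass. Without TMM factors that fold passed at 1.11.

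timp2a stood at 235 and 213 CPM in fibroblast-like cells, 195 and 205 CPM in fin fold mesenchyme-like cells and 238 and 146 CPM in osteoblast-like cells. The class with the highest value differed between the libraries. Its fold in fin fold mesenchyme-like cells was 2.22 ± 0.13 (SE, edgeR adjusted p = 5.03e-12). Glia-like cells were lowest at 7.09 and 12.03 CPM, and the fold there was -3.37 ± 0.27 (SE, edgeR adjusted p = 2.14e-09).

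timp4.3, a member of the timp4 cluster, was high in fin fold mesenchyme-like cells at 127 and 122 CPM and in chondrocyte-like cells at 112 and 106 CPM. A UMI was found in 44.5% and 46.99% of the fin fold mesenchyme-like cells but only 21.5% and 22.6% of the chondrocyte-like cells, so fewer chondrocyte-like cells carried a similar sum. The 2 classes were not separated (0.01 on the log2 scale, adjusted p of 1). Leukocyte-like cells held 0 UMIs in both libraries, where 3 counts would be 4.91 and 4.17 CPM.

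timp4.1 was called in epidermis-like cells, where it stood at 13.9 and 15.6 CPM in 18.3% and 19.9% of the cells, with a fold of 5.50 ± 0.47 (SE, edgeR adjusted p = 1.87e-08). A second call, in smooth muscle-like cells at 8.16 and 4.46 CPM, rested in library 1 on 1 cell with 78.3% of the UMIs. timp4.2 had 0 and 2 UMIs over all kept cells. In the RefSeq annotation of zebrafish (assembly GRCz12tu) timp4.1, timp4.2 and timp4.3 are consecutive protein-coding genes. By CPM, timp4.1 was highest in epidermis-like cells, timp4.3 in fin fold mesenchyme-like and chondrocyte-like cells, and timp4.2 was near 0. The calls were wider, since timp4.3 was called higher in 3 classes and timp4.1 in 2. How reads from so close a group were divided could not be checked from the files.

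The genes of the mammalian MMP2 activation complex were high in largely the same classes. mmp2 was called higher in 3 classes, and mmp14a, mmp14b, timp2a and timp2b in 4 each. mmp2, the gelatinase A gene, was highest in chondrocyte-like cells at 462 and 480.4 CPM, with a UMI in 83.9% and 82.9% of the cells. Fibroblast-like cells held 287 and 273 CPM and fin fold mesenchyme-like cells 212 and 226 CPM. The fold in chondrocyte-like cells was 3.29 ± 0.14 (SE, edgeR adjusted p = 1.71e-14), and against fin fold mesenchyme-like cells alone, the second class in the scaled fit, it was 1.28 (adjusted p = 0.000239). After each cell was thinned to 1000 UMIs, 31.4% and 32.8% of chondrocyte-like cells kept a UMI against 1.19% and 1.004% of neuron-like cells. Unthinned, neuron-like cells had one in 6.87% and 4.22%, at depths of 3186 and 3363.5 UMIs against 6970 and 7792.

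mmp14a and mmp14b, the copies of membrane-type MMP14, had different classes of highest CPM. mmp14a stood at 219.7 and 218 CPM in fibroblast-like, 192 and 182 CPM in chondrocyte-like and 176 and 187 CPM in osteoblast-like cells. mmp14b was highest in fin fold mesenchyme-like cells at 155.5 and 135 CPM and stood at 65.005 and 67.9 CPM in chondrocyte-like cells. The folds in the classes of highest CPM were 1.97 ± 0.18 (SE, edgeR adjusted p = 1.87e-08) for mmp14a and 2.39 ± 0.14 (SE, edgeR adjusted p = 2.62e-12) for mmp14b. In the scaled fit chondrocyte-like cells came first for mmp14a and were not separated from fibroblast-like cells (0.33 on the log2 scale, adjusted p = 0.462). Both were lower in glia-like, neuron-like and skeletal muscle-like cells.

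Over the mean CPM of the 12 classes, Spearman's rho between mmp2, mmp14a, mmp14b, timp2a and timp2b ran from 0.811 (timp2a with timp2b) to 0.944 (mmp14a with timp2a). Pearson's r ran lower, from 0.384 for mmp2 with timp2b to 0.934 for mmp14a with timp2a. These are descriptions over 12 classes that share libraries and differ in depth. The order of classes was thus alike for the 5 genes, whereas the sizes were not, since mmp2 led in chondrocyte-like cells and timp2b in osteoblast-like cells.

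**Figure D2:**
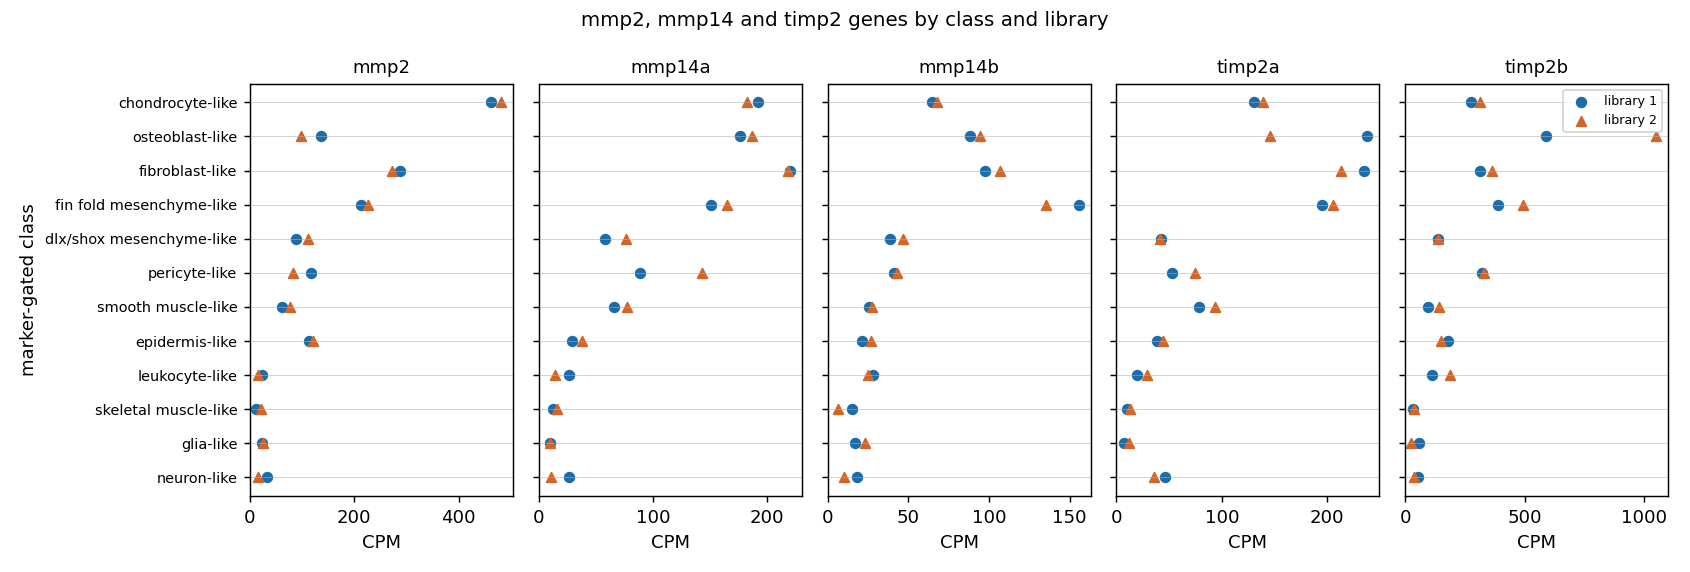
CPM of mmp2, mmp14a, mmp14b, timp2a and timp2b (panels, linear axes that start at 0) in 12 marker-gated classes, with circles for library 1 and triangles for library 2. Chondrocyte-like, osteoblast-like, fibroblast-like and fin fold mesenchyme-like cells lie to the right in each panel, and mmp2 reaches 462 and 480 CPM in chondrocyte-like cells.

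Of the other membrane-type genes mmp17a and mmp24 each led in 1 class, and mmp16a and mmp15b were shared between classes. mmp16a (MT3-MMP) had its highest CPM among the tested classes in pericyte-like cells at 118 and 149 CPM, in 35.5% and 28.8% of the cells, with a fold of 1.90 ± 0.24 (SE, edgeR adjusted p = 7.25e-06). In the scaled fit chondrocyte-like cells stood 0.06 above pericyte-like cells on the log2 scale (adjusted p = 0.938), so these 2 classes were not separated. It was also called in osteoblast-like, fibroblast-like and chondrocyte-like cells, the first at 97.8 and 88.5 CPM. Its share in neuron-like cells was 14.6% and 12.7%, above that of most members.

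mmp15b (MT2-MMP) had its highest CPM in dlx/shox mesenchyme-like cells at 43.2 and 40.8 CPM, with a fold of 2.004 ± 0.30 (SE, edgeR adjusted p = 3.69e-05). In the scaled fit skeletal muscle-like cells (30.8 and 17.7 CPM) stood 0.11 above them on the log2 scale (adjusted p = 0.869), so these 2 classes were not separated. mmp15b was also higher in smooth muscle-like, glia-like and skeletal muscle-like cells and lower in chondrocyte-like and leukocyte-like cells. Its copy mmp15a was higher in fibroblast-like cells (26.7 and 34.9 CPM), smooth muscle-like cells (28.02 and 21.5 CPM) and fin fold mesenchyme-like cells.

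mmp17a (MT4-MMP, held by a lipid anchor) led in osteoblast-like cells. It stood there at 48.9 and 49.2 CPM in 29.4% and 36.7% of the cells, with a fold of 4.94 ± 0.40 (SE, edgeR adjusted p = 9.43e-09), and the class second in CPM, neuron-like, stood at 5.98 and 5.56 CPM. mmp24 (MT5-MMP, known from mammalian nervous tissue) led in neuron-like cells at 84.4 and 77.3 CPM in 26.9% and 25.3% of the cells, with a fold of 6.50 ± 0.27 (SE, edgeR adjusted p = 3.66e-14). Glia-like cells were second at 9.93 and 9.25 CPM, and the fold of neuron-like over glia-like cells was 3.23 on the log2 scale (adjusted p = 8.27e-07).

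Leukocyte-like cells carried the highest levels of any member. mmp13a, a collagenase gene, stood at 2554 and 3119 CPM and mmp9, the gelatinase B gene, at 1213 and 1578 CPM. The folds were 8.43 ± 0.40 (SE, edgeR adjusted p = 1.88e-13) for mmp13a and 7.18 ± 0.26 (SE, edgeR adjusted p = 4.00e-16) for mmp9. mmp25b, a copy of the leukocyte protease MT6-MMP, was low but led in the same class at 22.9 and 32.001 CPM, with a fold of 7.02 ± 0.70 (SE, edgeR adjusted p = 4.59e-07). Its next class was neuron-like at 3.99 and 11.1 CPM.

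Within the leukocyte-like class, the UMIs of the 3 genes lay mostly in cells with a UMI of mpx, the neutrophil myeloperoxidase gene. This split of the class was made after the data were seen. The 20 and 28 cells with mpx and without the macrophage genes mpeg1.1 or csf1ra held 10720.1 and 8445 CPM of mmp13a and 5229 and 4647 CPM of mmp9. The 40 and 42 cells with mpeg1.1 or csf1ra and without mpx held 92.999 and 509 CPM of mmp13a and 0 and 38.6 CPM of mmp9. For mmp25b the mpx cells held 70.6 and 87.4 CPM and the macrophage-gene cells 6.80 and 4.83 CPM. Over all kept cells mmp13a had 5882 and 7437 UMIs, of which the mpx cells held 1519 and 2030. For mmp9 these were 2175 and 3228 UMIs, with 741 and 1117 in the mpx cells. For mmp13a, 20 of 20 and 27 of 28 mpx cells had a UMI, and the same held for mmp9. Macrophage-gene cells had one for mmp13a in 8 of 40 and 14 of 42, and for mmp9 in 0 of 40 and 4 of 42. The mpx cells were not deeper (medians of 6893 and 6322.5 UMIs against 10342 and 9061). timp2b was in 70.0% and 75.0% of the mpx cells.

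Both genes were also called in epidermis-like cells, mmp13a at 234 and 164 CPM and mmp9 at 77.1 and 59.7 CPM. In fin fold mesenchyme-like cells they stood at 194 and 142 CPM and 58.8 and 56.3 CPM. For mmp13a the neuron-like class had a UMI in 2.09% and 0.602% of cells against 45.8% and 44.9% of epidermis-like cells, whose depth was 16604 and 18521 UMIs. Thinned to 1000 UMIs the shares were 1.19% and 0.402% and 11.95% and 7.92%. The fourth mmp13a call, in skeletal muscle-like cells, rested on 1 cell of library 1 that held 230 of 231 UMIs, and the class stood at 178 and 13.3 CPM. Without mmp13a the class would have 6 members higher.

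**Figure D3:**
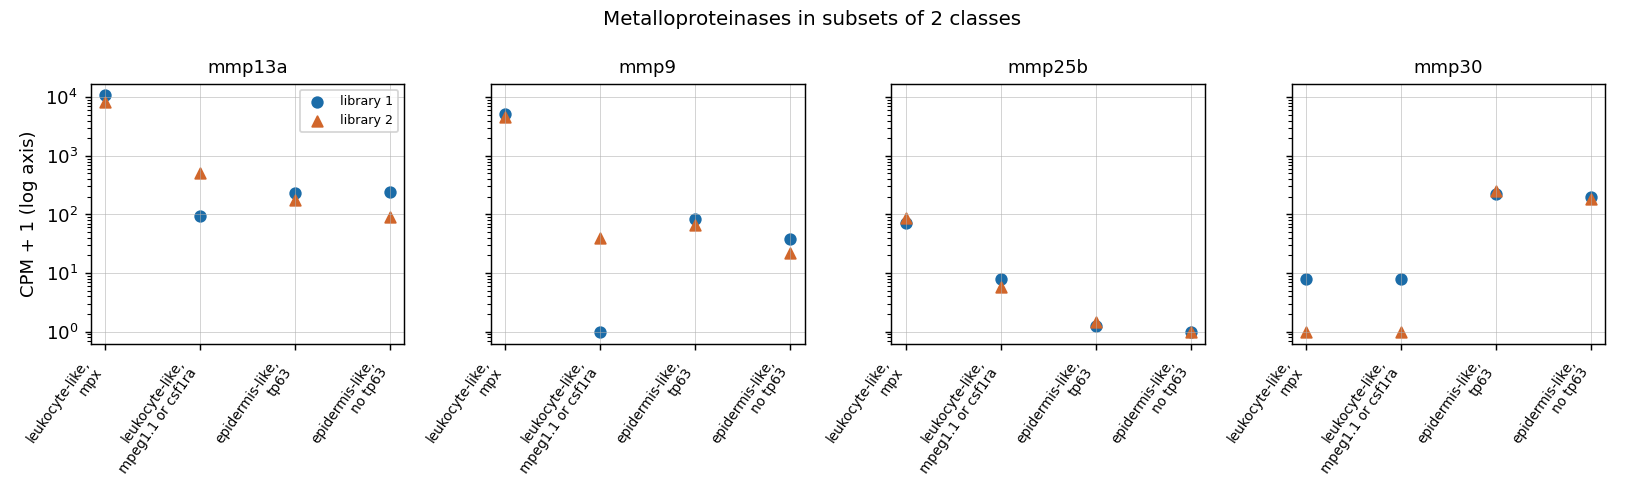
CPM + 1 on a log axis for mmp13a, mmp9, mmp25b and mmp30 in leukocyte-like cells split by mpx or by mpeg1.1 and csf1ra, and in epidermis-like cells split by tp63, with circles for library 1 and triangles for library 2. mmp13a lies at 10720.1 and 8445 CPM in mpx cells against 92.999 and 509 CPM in the other leukocyte-like cells, and mmp30 is high in both epidermis-like subsets.

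Epidermis-like cells had the highest CPM of 2 tested proteases, mmp30 and mmp28. mmp30, a metalloproteinase gene of fish, stood at 219 and 244 CPM in 73.3% and 76.8% of the cells, with a fold of 5.15 ± 0.29 (SE, edgeR adjusted p = 1.48e-12). Fin fold mesenchyme-like cells were second at 35.8 and 26.6 CPM, and epidermis-like cells exceeded them by 2.97 on the log2 scale (adjusted p = 1.93e-05). mmp28, the epilysin gene, stood at 20.2 and 23.9 CPM there and at 15.6 and 17.8 CPM in fin fold mesenchyme-like cells, which were not separated (0.45, adjusted p = 0.301). Epidermis-like cells with a UMI of tp63, a basal keratinocyte factor, had mmp30 in 80.4% and 84.6% of cells, and those without in 49.1% and 49.3%. Their CPM were closer, 223 and 254 against 199.6 and 185, and the cells with tp63 were deeper (medians of 17340.5 and 20226 UMIs against 12344 and 13160), so the depth moved with the share.

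mmp11a, the stromelysin-3 gene, led in fin fold mesenchyme-like cells at 35.4 and 33.98 CPM, with a fold of 5.59 ± 0.46 (SE, edgeR adjusted p = 6.07e-09). mmp23bb, a membrane-anchored protease that lacks the hemopexin domain, was called in glia-like cells at 18.4 and 49.03 CPM and in smooth muscle-like cells at 19.5 and 18.1 CPM. In the glia-like class 1 cell of library 2 held 67.9% of its UMIs, and the 2 classes were not separated (0.28, adjusted p = 0.599).

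Genes of the proteoglycan-cutting ADAMTS group spread over several classes. adamts9 led in smooth muscle-like cells at 67.4 and 58.2 CPM in 42.4% and 39.8% of the cells, with a fold of 3.96 ± 0.22 (SE, edgeR adjusted p = 2.06e-12). Its next class, fin fold mesenchyme-like, stood at 19.5 and 30.2 CPM. adamts1 led in fin fold mesenchyme-like cells at 81.4 and 75.8 CPM and was lower in glia-like, neuron-like and leukocyte-like cells. Its neighbour in the annotation, adamts5, was in contrast lower in fin fold mesenchyme-like cells, with a fold of -1.83 ± 0.43 (SE, edgeR adjusted p = 0.00182), and stood at 1.28 and 1.13 CPM there. adamts5 was higher in 2 classes. Its mean CPM was highest in glia-like (12.9) and fibroblast-like cells (12.4), and the highest class differed between the libraries. In the scaled fit fibroblast-like cells came first and were not separated from chondrocyte-like cells (0.27 on the log2 scale, edgeR adjusted p = 0.760).

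adamts15a and adamts15b both had their highest CPM in fibroblast-like cells, at 69.9 and 69.8 CPM and 49.5 and 48.02 CPM, which did not pass against the second class (adjusted p of 0.164 and 0.404). The copies parted outside that class: adamts15a was higher in pericyte-like and smooth muscle-like cells and lower in skeletal muscle-like cells, where adamts15b was higher at 23.9 and 14.6 CPM. adamts8a, the annotated neighbour of adamts15a, was called in 6 classes and was highest in skeletal muscle-like cells at 40.1 and 19.1 CPM, with a fold of 4.89 ± 0.41 (SE, edgeR adjusted p = 6.22e-09). Library 1 exceeded library 2 there, and the class with the highest value differed between the libraries.

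Of the procollagen amino-propeptidase genes adamts3 led in chondrocyte-like cells at 58.5 and 55.1 CPM, with a fold of 3.67 ± 0.19 (SE, edgeR adjusted p = 7.76e-13). adamts2 had its highest CPM in fibroblast-like cells at 17.8 and 12.004 CPM, with a fold of 3.49 ± 0.60 (SE, edgeR adjusted p = 0.000233), and stood at 12.9 and 10.04 CPM in epidermis-like cells. In the scaled fit epidermis-like cells were 0.06 higher on the log2 scale (adjusted p = 0.956), so these 2 classes were not separated. adamts14 was below the filter, with 121 and 160 UMIs over all kept cells.

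adamts18 led in osteoblast-like cells, at 61.9 and 47.2 CPM in 38.2% and 36.7% of the cells. Its fold there was 7.07 ± 0.62 (SE, edgeR adjusted p = 2.71e-07), and 2.57 (adjusted p = 0.00422) over glia-like cells, which were second at 8.51 and 17.6 CPM. adamts12, a protease known to cut cartilage oligomeric matrix protein in mammals, led in chondrocyte-like cells at 22.9 and 22.1 CPM, with a fold of 3.40 ± 0.24 (SE, edgeR adjusted p = 1.42e-10). adamts16 had its highest CPM in fibroblast-like cells at 15.2 and 13.1 CPM, with a fold of 4.75 ± 0.74 (SE, edgeR adjusted p = 0.000128), on only 12 and 12 UMIs. Skeletal muscle-like cells, at 10.8 and 7.98 CPM, were 0.23 higher in the scaled fit (adjusted p = 0.857), so these 2 classes were not separated.

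adamts10, which in humans is mutated in Weill-Marchesani syndrome, was called in pericyte-like cells at 41.2 and 14.3 CPM, with a fold of 2.20 ± 0.67 (SE, edgeR adjusted p = 0.0470). The call rests on 7 and 5 UMIs. Against dlx/shox mesenchyme-like cells (23.996 and 22.3 CPM) it reversed, at -0.16 on the log2 scale with an adjusted p of 0.982. It was lost when a cell needed only 2 markers (adjusted p = 0.0527), when cells of 2 sets were kept (0.111) and when classes of 10 cells entered (0.113).

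Of the ADAMTS-like genes, adamtsl7 led in fin fold mesenchyme-like cells at 80.8 and 98.3 CPM in 16.4% and 15.5% of the cells, with a fold of 5.98 ± 0.33 (SE, edgeR adjusted p = 6.67e-12). adamtsl2, a gene of human geleophysic dysplasia, was called in fibroblast-like cells at 21.6 and 57.8 CPM, with a fold of 4.75 ± 0.46 (SE, edgeR adjusted p = 7.75e-08). A single cell held 64.7% of these UMIs in library 1 and 45.3% in library 2, and smooth muscle-like cells, at 23.4 and 23.7 CPM in 15.2% and 16.1% of the cells, were not separated (0.54, adjusted p = 0.457). adamtsl5 was higher in epidermis-like cells at 12.6 and 13.5 CPM and in 3 other classes.

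In 27 of 34 tested members the class of highest CPM was the same in both libraries, and in 17 the highest class of the scaled fit passed the test against the second. Both classes of each such test, here and above, were picked from the values it used, so its p-values are descriptive. In pericyte-like cells the 3 members called were mmp16a, adamts15a (52.9 and 31.5 CPM, fold 1.63 ± 0.48 (SE, edgeR adjusted p = 0.0353)) and adamts10. In summed level timp2b came first there, then mmp16a, and mmp14a at 88.2 and 143 CPM and mmp2 at 118 and 82.9 CPM did not pass. Without TMM factors mmp14a (fold 1.17) and mmp15b (fold 1.79) passed in this class, as timp2b did, and mmp2 (fold 0.34) did not. The class holds 31 and 52 cells and 170039 and 349741 UMIs, so for a gene with no UMI the floor of 3 counts is 17.6 and 8.58 CPM, above the level of many members elsewhere.

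Classes with under 30 cells in a library were described and not tested. Hepatocyte-like cells (10 and 16) held 107 and 30.2 CPM of adamts13, the protease that cuts von Willebrand factor, and none of the 12 tested classes had a mean above 0.0661 CPM. A UMI was in 9 of 10 and 7 of 16 of these cells. Tenocyte-like cells (16 and 26) held 609 and 381 CPM of mmp2 and 194 and 265 CPM of mmp14a, at or above the level of most tested classes. Oligodendrocyte and Schwann-like cells (12 and 10) held 1129 and 758 CPM of timp2b, and 1 cell carried 34.7% and 50% of it. Stellate-like cells gated on colec11 and angptl6 (12 and 20) held 164 and 197 CPM of mmp16a and 109 and 58.3 CPM of adamts10, both above the pericyte-like values. Endothelial-like cells (24 and 37) held 88.9 and 134 CPM of mmp16a and 204 and 286 CPM of timp2b, and their mmp13a in library 2, 102 UMIs, lay in 2 cells.

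Other genes of matrix turnover came from lists of MMP activators and inhibitors, ADAM proteases, the plasminogen system, procollagen processing, hyalectans and further degrading enzymes. Of the 61 listed genes 56 are in the files and 49 were tested. Because the lists were chosen with earlier results of these data known, the counts below cannot be read as an excess. In chondrocyte-like, fibroblast-like and fin fold mesenchyme-like cells 18 of 49 were higher in each, with 2, 0 and 1 lower. Of all genes, 10.7%, 9.29% and 16.3% were higher in these classes and 3.24%, 1.56% and 4.48% lower. In leukocyte-like cells 16 of 49 were higher and 7 lower (16.1% and 12.2% of all genes), whereas 3 of 34 members were higher there. In neuron-like and glia-like cells 7 and 4 were higher and 19 and 18 lower, where 28.7% and 15.8% of all genes were higher and 16.6% and 11.5% lower. Pericyte-like cells had 4 higher and 0 lower (4.48% and 1.28% of all genes).

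The um148 libraries gave each member in 3 mutant libraries and, through the authors' deposited table, its fold against wild-type. The mutation was checked on the genes the labels could mean. pdgfrb stood at 4852, 5357 and 3845 normalized reads in um148 libraries 1 to 3, and the authors' deposited table gives a log2 fold change of -1.21 with an adjusted p of 0.00140. The ligand genes pdgfba and pdgfbb stood at 84.7, 54.9 and 133 and at 61.5, 14.98 and 32.7, with log2 fold changes of -0.66 and -0.66 in the authors' deposited table and adjusted p of 0.366 and 0.538. The files leave unsettled which of these genes carries the mutation, and the fall in pdgfrb does not settle it. The 3 wild-type columns have no sample here and were not used.

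In these mutants 4 ADAMTS or ADAMTS-like genes were higher, where 6.18% of the table's genes were, and 1 membrane-type MMP gene was lower, where 5.13% were. The table holds 37 of the 49 members, and 5 of 37 pass an adjusted p of 0.05 in the authors' deposited table, against 11.3% of its 16853 genes with an adjusted p. At 13.5% the share is near that background. The 12 members not listed include timp4.2 and mmp21, which had 2 and 0 UMIs in the single-cell data. Fewer cells of a type and less RNA per cell cannot be told apart in these bulk libraries.

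adamts14, a procollagen amino-propeptidase gene, held 683, 620.0 and 372 normalized reads in um148 libraries 1 to 3. The authors' deposited table gives it a log2 fold change of 3.93 (adjusted p = 4.80e-18). Library 3 was lowest. adamts6 held 92.8, 97.8 and 107, with the libraries close together. In the authors' deposited table its log2 fold change is 1.40 (adjusted p = 0.0169). adamts5, of the proteoglycan-cutting group, held 659, 528 and 628, with a log2 fold change of 1.01 (adjusted p = 0.00476) in the authors' deposited table. adamtsl3 held 439.9, 732 and 447, library 2 being highest, and has a log2 fold change of 1.02 (adjusted p = 0.0198) in the authors' deposited table.

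mmp15b was the member that fell. It held 631, 675 and 584, with the libraries close together, and the authors' deposited table gives a log2 fold change of -1.09 (adjusted p = 0.0236). Its copy mmp15a held 1940.1, 2128 and 1852, with -0.18 (adjusted p = 0.764) in the authors' deposited table. In the single-cell libraries mmp15b had its highest CPM in dlx/shox mesenchyme-like cells, not separated from skeletal muscle-like cells. The dlx/shox mesenchyme marker list had 0 of 8 genes called in the authors' deposited table, a median log2 fold change of -0.30 and summed levels of 5660, 7521 and 6510 in um148. Of the skeletal muscle markers 3 of 7 were higher in the authors' deposited table. The part of these cells in the mmp15b value was not tested. adamts6, adamts14 and adamtsl3 were below the single-cell filter, so no class was tested for them. Untested, adamts6 had its highest mean CPM in smooth muscle-like cells (3.34) and adamtsl3 in chondrocyte-like cells (5.69), in both libraries. For adamts14 the highest class differed between the libraries.

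No inhibitor passed, and all 4 listed had fold changes below 0, as did 8524 of all 17540 genes. timp2a held 4636, 5271 and 6208 (-0.35 (adjusted p = 0.439) in the authors' deposited table). timp2b held 842, 1423 and 1082 (-0.63 (adjusted p = 0.175) in the authors' deposited table). timp4.1 held 196, 72.9 and 217 (-0.36 (adjusted p = 0.661) in the authors' deposited table). timp4.3 held 115, 315 and 506, the widest range of the members on the log2 scale with an SD of 1.09, and has -1.54 (adjusted p = 0.356) in the authors' deposited table, so a fold of this size did not pass.

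Of the 15 mmp genes listed, 12 had fold changes below 0 and 1 was called, with a median log2 fold change of -0.25 in the authors' deposited table. Over all 17540 genes 8524 were below 0, and 11.3% of those with an adjusted p were called, against 6.67% of these mmp genes. Of 14 adamts genes 6 were below 0 and 3 were called, with a median of 0.06 there. Over all 37 members the median was -0.18, and over all genes listed it was 0.02. The mmp2 gene held 11673, 14778 and 14904, mmp14a held 6453, 7514 and 7639.8 and mmp14b held 2432, 2762 and 3051. In the authors' deposited table these 3 have log2 fold changes of 0.25 (adjusted p = 0.687), -0.16 (adjusted p = 0.748) and -0.65 (adjusted p = 0.107).

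**Figure D4:**
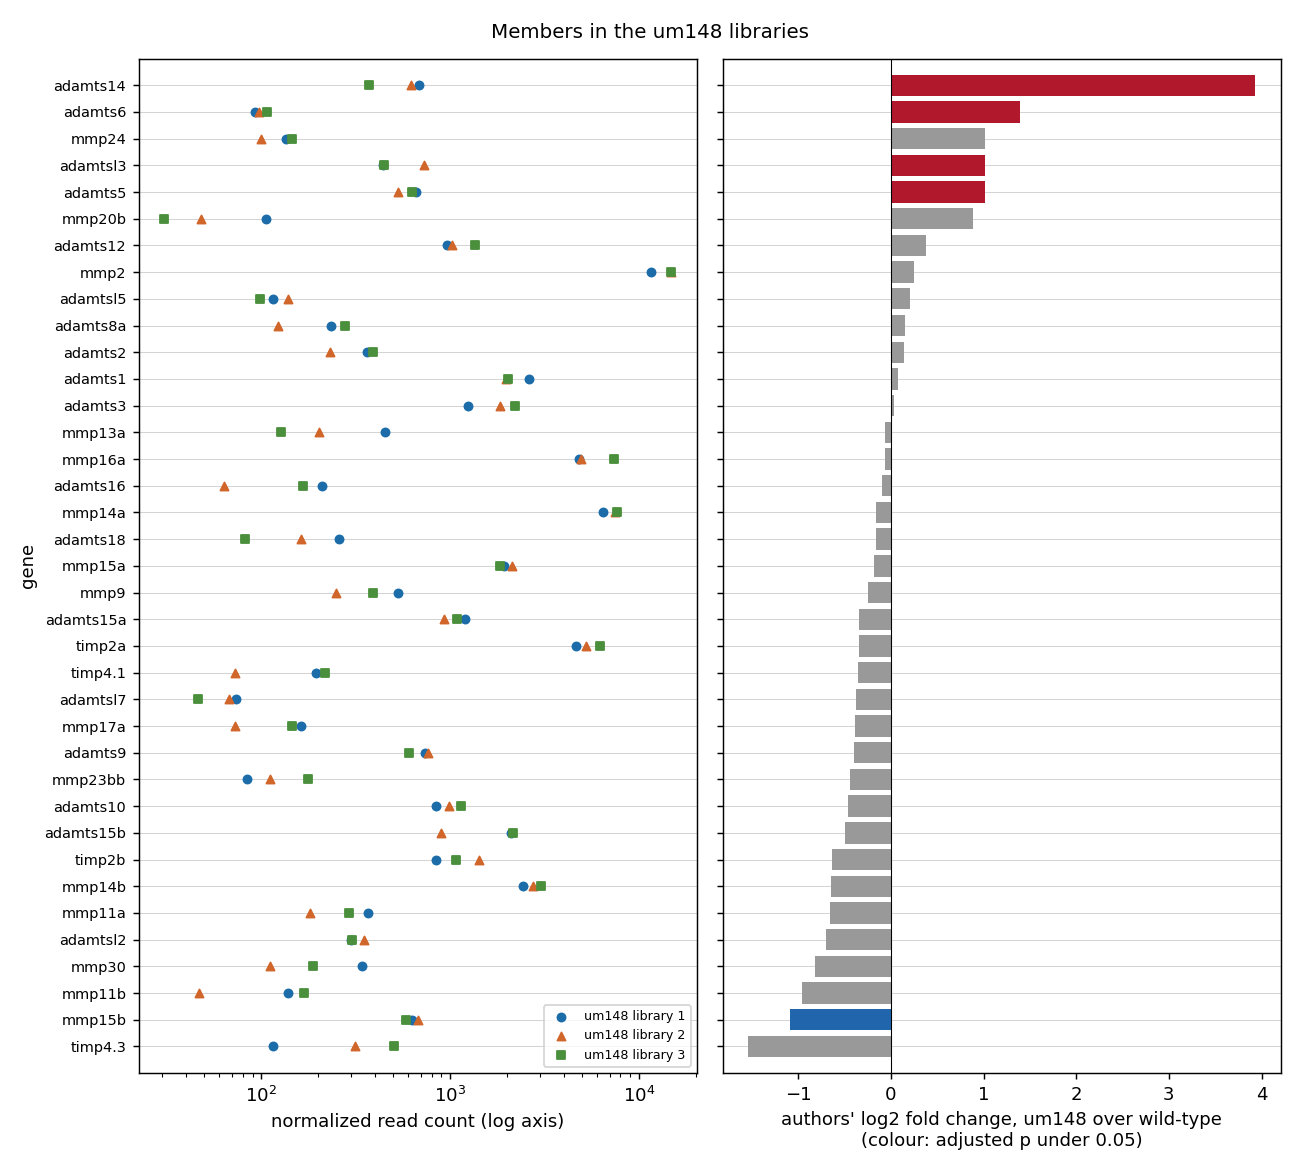
Left, normalized read counts of the 37 members listed, 1 symbol per um148 library, on a log axis; right, the authors' log2 fold change of um148 over wild-type, with called genes in red (higher) and blue (lower). adamts14 stands apart at 3.93, the 4 timp genes are all left of 0, and the libraries of timp4.3 spread most (SD of 1.09 on the log2 scale).

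The members' spread between um148 libraries was close to that of all genes. The SD of log2(normalized reads + 1) had a median of 0.378 over the members and 0.371 over all genes (n = 3 libraries). Library 3 held the highest value in 17 of 37 members, library 1 in 13 and library 2 in 7. Library 1 was highest for mmp30, mmp9 and mmp13a, of the epidermis-like and leukocyte-like classes, and not for timp4.1 and adamtsl5, also of the epidermis-like class. mmp30 held 342, 111 and 189, mmp9 held 529, 251 and 392 and mmp13a held 455, 203 and 128. The summed levels of the epidermis markers (7 of 7 listed) were 13611, 5854 and 8976, and those of the leukocyte markers (3 of 9 listed) 553, 98.8 and 271. Both lists were thus highest in library 1 and lowest in library 2, as mmp30 and mmp9 were. Library 1 was lowest for adamts3, adamts12 and mmp2, the tested members with their highest CPM in chondrocyte-like cells. There adamts3 held 1249, 1845 and 2209.6 and mmp2 the values given above, and the 8 chondrocyte markers summed to 125906, 244076 and 235909. Of the untested members with their highest mean CPM in that class, adamtsl3 was also lowest in library 1. In contrast, adamts14 was highest in library 1 and lowest in library 3. The part of cell make-up in these members was not tested.

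Marker lists also moved between genotypes. Of the epidermis markers in the authors' deposited table, 4 of 7 were higher and 1 lower (median log2 fold change 1.02), 3 of 7 skeletal muscle markers were higher (median 1.54) and 3 of 8 osteoblast markers were lower (median -0.80). Of the pericyte markers 2 of 7 were lower (median -0.15), and of the chondrocyte markers 0 of 8 were called (median 0.14). Tested members with their highest mean CPM in epidermis-like cells were mmp30, timp4.1, adamtsl5 and mmp28. The first 3 are not called in the authors' deposited table, with log2 fold changes of -0.82, -0.36 and 0.20 (adjusted p of 0.189, 0.661 and 0.857). mmp28 is not listed there. Of the leukocyte markers 1 of 3 listed was higher (median 2.07). Of the members led by leukocyte-like cells, mmp9 (-0.25, adjusted p = 0.740) and mmp13a (-0.06, adjusted p = 0.964) are not called in the authors' deposited table. In skeletal muscle-like or osteoblast-like cells they were adamts8a, adamts18, mmp17a and timp2b, and none of these is called.

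Among the other genes of matrix turnover, those higher included protease genes as well as inhibitor, receptor and proteoglycan genes. Of 51 listed genes in the table, 9 were higher and 2 lower in the authors' deposited table, or 21.6% against 11.3% of all genes, a difference that was not tested. The lists were chosen with earlier results of these data known, so the 21.6% cannot be read as an excess. Those higher were reck, a membrane inhibitor of metalloproteinases (log2 fold change 0.99 with adjusted p 0.000456), lrp1aa, an endocytic receptor that clears proteases and TIMPs (0.68, 0.0384), the ADAM genes adam9 (1.22, 0.00359), adam12 (0.80, 0.0418) and adam10b (3.34, 4.50e-05), the procollagen C-proteinase gene tll1 (1.05, 0.00137), and hpse2 (2.50, 1.23e-11), in each case from the authors' deposited table. The proteoglycan genes acanb (2.13, 6.43e-06) and vcanb (1.84, 8.92e-06), which encode aggrecan and versican, known substrates of the ADAMTS group, complete the 9 in the authors' deposited table.

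reck held 9117, 10352 and 9770.2 normalized reads in the um148 libraries and lay within a narrow range. vcanb held 4453, 4983 and 2381 and acanb 1863, 5016 and 3633. adam10b held 434, 498 and 70.3, with library 3 far below the others. Among those that fell in the authors' deposited table was ctsla, a cathepsin L gene (-1.85, adjusted p 6.93e-11). In the single-cell libraries acanb was a gene of chondrocyte-like cells (126 and 124 CPM) and vcanb led in fin fold mesenchyme-like cells (234 and 209 CPM).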

How the data were processed

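The labels give 2 single-cell libraries and 3 bulk um148 libraries, each group treated as replicates. The members and all lists were chosen with earlier results of these data known.

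The matrices hold UMI counts per gene and barcode, as deposited by the authors. Per the submitters' processing notes, Cell Ranger 3.1.0, CASAVA 1.8.2, STAR, RSEM, DESeq2 and GRCz11 were used in the series, with no role given. The um148 columns hold a normalized signal, read counts that the authors divided by a size factor, and no count test was run on them. Per gene, the authors' deposited table holds log2 fold changes, the same as a ratio, a test score, p-values and the −log10 of adjusted p-values. Read as um148 over wild-type, its fold changes imply a wild-type total of 20284258 against 19212955 in um148, and the other direction 91949403. Of its 17540 genes, 687 have no adjusted p. The 3 other columns of per-sample values, labelled wild-type, were not used.

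Barcodes with at least 500 genes and at most 10% of UMIs from 13 mitochondrial genes were kept. A marker counted in a cell when its UMIs exceeded the library-wide share at that depth (Poisson tail under 0.01), 155 markers in 21 sets being in the files. A cell joined the set with most markers, at least 3. Cells meeting 2 sets were left out. Sums per class and library were fitted in edgeR 4.0.16 (quasi-likelihood, filterByExpr, TMM, class plus library). The code was tested on simulated data. Printed CPM use plain totals, whereas folds use TMM factors. The library block was part of the model because both libraries hold every class. Shares and floors of 3 counts cover counting error only.

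Members named are every timp gene, up to 3 called members per class for which that class was highest, and every member called in the authors' table, while others are given as counts. mmp14a, mmp14b, mmp15a, adamts1, adamts13, adamts15a, adamts15b and adamtsl5 were chosen after their values were seen, as were the splits within classes. Gene neighbours were read from RefSeq (GRCz12tu) by name. Alternatives changed the scaling (RLE, DESeq2 1.42.0, none), filters, gates and libraries. Values of 1 gene of the matrix turnover lists are not reported here, and it remains in the counts.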

Additional observations from a re-analysis of the deposited data

Results flagged for a closer look

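The barcodes removed by the mitochondrial limit hold member RNA that no comparison uses. They carried 7130 member UMIs in library 1 and 1696 in library 2, against 58385 and 82856 in the kept cells. That is 483 and 881 UMIs per 1e6 UMIs of those barcodes, below the 1108 and 1127 of the kept cells. timp2b and mmp2 were the leading members there in both libraries, with mmp13a next in library 1. These barcodes were flagged only because they lie outside the main measurement, and their part in any class was not tested.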

How the results depend on the processing

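The count of 34 members higher in at least 1 class ran from 32 (classes of at least 10 cells) to 43 (no filter on low counts) under the settings tried, was 35 with a mitochondrial limit of 20%, and was 34 without either single-cell library, as values with no test, and 34 without the library block that pairs the classes. Against the highest other class alone it was 17, since that asks for 1 leading class. The authors' table calls 5 members at an adjusted p under 0.05 and 2 under 0.01. The median SD of 0.378 between um148 libraries ran from 0.231 to 0.382 with a library left out, lowest without library 2. Of the 25 named class folds, 5 reversed against the highest other class alone: adamts10 in pericyte-like (-0.16), mmp16a in pericyte-like (-0.061), mmp15b in dlx/shox mesenchyme-like (-0.11), adamts16 in fibroblast-like (-0.23) and adamts2 in fibroblast-like cells (-0.064). For mmp16a, mmp15b, adamts16 and adamts2 the class was named by unscaled CPM and was not the highest in the scaled fit. For adamts10 the named class was the highest in both, and the cause was not tested. No named fold that could be fitted reversed under the other settings run. Against the highest other class 5 more kept their direction and no longer passed (timp4.3, timp2b, adamtsl2, mmp23bb and mmp28). With 4 markers 20 of the 25 could be fitted and with 1000 genes per cell 23, because classes fell under 30 cells. With classes of at least 10 cells 22 stayed the same and 1 weakened, and the rest of the 25 had no result. With 4 markers the fibroblast-like class was among those lost, so its calls were not checked at that setting. The settings for cells of 2 sets, no scaling factors and classes of 10 cells were chosen after seeing the data. Depth limits low members most: 15 could not be tested.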
